A study of Ictidomys tridecemlineatus with 31 samples.

Results

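The 58 genes described here code for the translation factors of the 13-lined ground squirrel kidney that load ribosomes onto mRNA, choose the start codon and drive elongation, together with the kinases and binding proteins that bear on them. They were taken by name: every row of the deposited table whose symbol begins with EIF1 to EIF6 or with EEF1 or EEF2, leaving out the methyltransferases that modify the elongation factors, with 1 row per symbol. They are 58 of 12863 genes in the table and fall into 42 initiation factors, 9 elongation genes, 4 eIF2 kinases and 3 eIF4E-binding proteins. Another 4 rows carried a symbol already present (Eif3a, Eif4b and, in 2 rows, Eif4g2), and the row with the higher mean was kept for each.

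The study sequenced poly(A) RNA from kidneys of 13-lined ground squirrels (Ictidomys tridecemlineatus), a hibernator whose winter torpor is broken by short arousals, in 6 states, and 31 animals are analysed here. SA animals were active in summer and SpD animals were warm again in spring but still housed in the dark. The other 4 states came from the hibernation season: Ent animals were cooling into torpor, EAr animals had begun to arouse from it, LAr animals were further along in rewarming, and IBA animals were warm between torpor bouts. No agent or genetic change was applied in any state, both sexes were present in every state, and the kidneys were flash-frozen at dissection, when adrenal glands were collected too.

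The groups held 5 animals each, with 6 in LAr. The study set outlying animals aside, of which a further SA animal is not analysed here. SA animal 137 and LAr animal 113 stood apart and were left out of the model, so that 29 animals entered it, 4 of them in SA, and the values of these 2 animals are given separately. The first sequencing experiment held 3 animals each of IBA, Ent and SpD, and the second held the other 22, so SA, EAr and LAr come from the second experiment alone. Values are batch-corrected rlog values on the log2 scale, made by the authors before deposit. They ranged in the table from 4.11 to 19.79 with animal medians between 9.74 and 9.88; counts are not in the table, so the depth is unknown and precision rests on the spread between animals. Where the level of every animal is given, animals of a state follow in order of animal number. All differences below are on this log2 scale, from a limma model of state, sex and experiment over all genes, and a gene is called when its Benjamini-Hochberg adjusted p is under 0.05. Rlog values are not scaled to transcript length, so levels are compared between animals and never between genes. In such bulk samples, fewer cells of a type and less RNA per cell cannot be told apart.

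Translation begins when eIF2 brings the initiator tRNA to the small ribosomal subunit, eIF3 and the eIF1 and eIF5 proteins steady that complex, and the eIF4 proteins recruit it to the capped end of an mRNA. eIF2 must be recharged by the exchange factor eIF2B, and phosphorylation of eIF2 by its kinases blocks that step, whereas the 4E-BPs hold the cap-binding protein eIF4E away from its partners. eEF1A and eEF2 then carry elongation forward, and protein synthesis in hibernators is known to be strongly suppressed in torpor, in part through phosphorylation of such factors, which RNA levels do not show.

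Most translation factor mRNAs differed little between states. The largest difference in any of the 7 compared pairs of states was under 0.3 in 51 of the 58 genes, and it was at least 0.5 in 2, the tissue-restricted paralogs Eif5a2 and Eef1a2. The median spread within a state was an SD of 0.103 over these genes and 0.156 over all genes, from 0.054 in Eif2b5 to 0.397 in Eef2k. Across the 6 states, 21 of the 58 genes were called by the limma F test, or 36.2%, against 46.1% of all genes. At an adjusted p under 0.001, the stricter level, 3 were called, Eif2a, Eif3b and Eif5a2, where 9.34% of all genes were. By role, 17 of 42 initiation factors, 3 of 9 elongation genes, 1 of 3 4E-BPs and 0 of 4 eIF2 kinases were called; 2 of the kinases had an unadjusted p under 0.05.

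**Figure D1:**
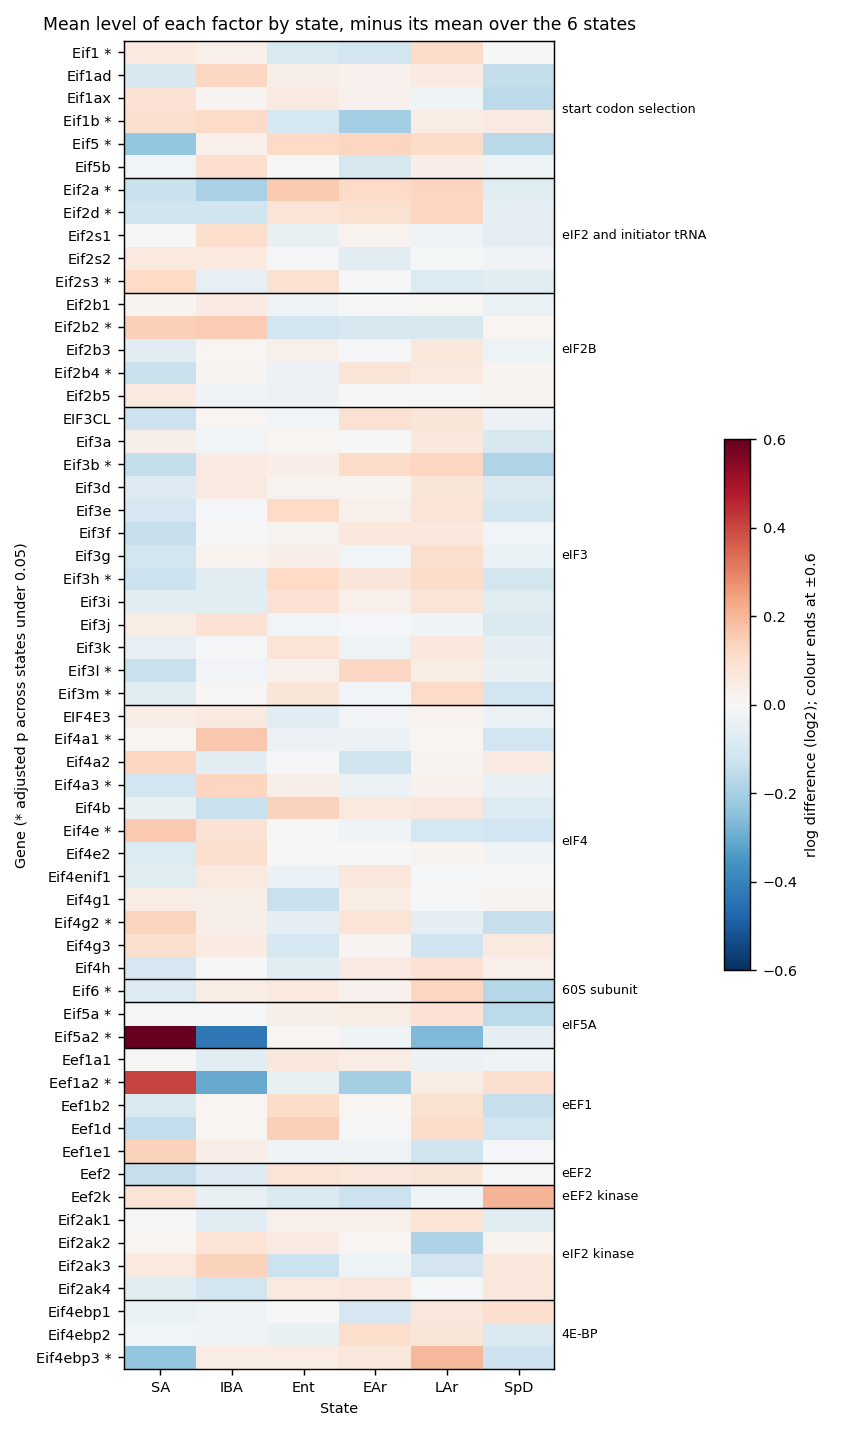
Mean rlog level of each of the 58 genes in each state, minus its mean over the 6 states, by role; columns are states, rows genes, colour is the difference on the log2 scale and ends at 0.6 in either direction, and stars mark the 21 genes called across states. Eif5a2 and Eef1a2 stand out, highest in SA and lowest in IBA, while most rows stay pale.

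The 2 paralogs fell most between summer and the warm interbout state. Eif5a2 (gene15199) codes for the second form of eIF5A, a factor that helps ribosomes pass difficult peptide bonds and carries the modified amino acid hypusine. Its levels in SA were 12.25, 12.21, 11.96 and 11.63. In IBA they were 10.79, 10.82, 11.07, 10.53 and 10.95, so every SA animal of the model lay above every IBA animal. The Ent levels were 11.13, 10.75, 11.77, 11.13 and 11.56, and the EAr levels 11.38, 11.11, 11.01, 11.48 and 11.18. LAr gave 11.01, 10.91, 10.86, 10.94 and 11.24, and SpD gave 11.24, 11.67, 11.53, 11.17 and 10.41. The ranges of the hibernation states overlapped each other, those of IBA and EAr only between 11.01 and 11.07. Of the hibernation animals, Ent animal 66 alone reached into the SA range.

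Eif5a2 fell by 1.33 ± 0.22 (SE) from SA to IBA, a 2.52-fold lower level (limma adjusted p = 1.8e-04), and it was 0.96 ± 0.22 higher in SA than in SpD (adjusted p = 0.011). The 2 comparisons share the SA animals. The second of them rested on SpD animal 130, without which the difference was 0.66 (adjusted p = 0.11), and with all 31 animals it was 0.73 (adjusted p = 0.13). The IBA/SA difference ranged from -1.49 to -1.22 when each animal was left out in turn. SA animal 137 had a level of 10.88, below the 4 other SA animals and within the IBA range, and LAr animal 113 had 10.52, below the other LAr animals.

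The paralog Eif5a, the widely expressed form, did not share this pattern: its means were 12.98 ± 0.15 (SD, n = 4) in SA, 12.98 ± 0.11 (n = 5) in IBA and 12.83 ± 0.14 (n = 5) in SpD. Eif5a was higher in the hibernation states than in SA and SpD by 0.11 ± 0.04 (adjusted p = 0.038), a call lost when any of 9 of the 29 animals was left out. Salmon assigns reads between close paralogs by likelihood, so the split between Eif5a and Eif5a2, and likewise between Eef1a1 and Eef1a2, is uncertain.

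Eef1a2 (gene8724) codes for the form of eEF1A, the carrier of aminoacyl-tRNA to the ribosome, known mainly from muscle and nerve. Its levels in SA were 7.36, 7.43, 6.97 and 7.48, and in IBA 6.60, 6.30, 6.63, 6.52 and 6.97. Ent gave 6.93, 7.21, 6.89, 6.58 and 6.67, and EAr 6.73, 6.62, 6.56, 6.65 and 6.93. LAr lay between 6.85 and 7.03 with a median of 6.98, and SpD gave 6.80, 7.29, 7.14, 7.35 and 6.40. SA and IBA met at a single level, 6.97, in SA animal 140 and IBA animal 171. Eef1a2 fell by 0.81 ± 0.16 from SA to IBA (adjusted p = 9.1e-04), a call kept in all 29 fits that left out 1 animal. The authors kept genes at an rlog of 7 or more in most animals of a group, and no IBA or EAr animal reached 7. The gene thus likely passed that filter through other states, which favours a lower level in IBA in advance. Its mean of 6.87 also kept it out of the alternative run on genes with a mean of at least 8.

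Eef1a2 was also 0.43 ± 0.15 lower in IBA than in LAr (adjusted p = 0.047), but that call was lost in 21 of the 29 fits that left out an animal. LAr animal 113, at 6.27, and SpD animal 130, at 6.40, were the lowest of their states, and SA animal 137, at 6.81, lay below the other SA animals. Eef1a1, the abundant form in most tissues, ranged in state means from 17.54 ± 0.07 in IBA to 17.67 ± 0.29 in Ent and was called in no comparison (adjusted p across states = 0.81). Ent animal 66, at 18.19, raised the Ent mean, as the other Ent animals lay between 17.48 and 17.60.

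Markers of the proximal tubule, the segment that fills most of the cortex, also differed between SA and IBA. The mean of the 4 markers (Slc27a2, Lrp2, Slc34a1 and Cubn) was 15.61 ± 0.17 in SA, between 15.38 and 15.76, and 14.83 ± 0.39 in IBA, between 14.38 and 15.16; 3 of the 4 were called lower in IBA than in SA. In EAr it was 15.41 ± 0.13, between 15.25 and 15.55 and so within reach of SA, while Eif5a2 averaged 11.23 ± 0.19 in EAr against 12.02 ± 0.29 in SA, and Eef1a2 6.70 ± 0.14 against 7.31 ± 0.23. The marker mean was low in the animals with the lowest Eif5a2 of SA, LAr and SpD, at 14.55 in SA 137, 14.16 in LAr 113 and 14.04 in SpD 130. Other animals, such as IBA 104 at 10.53 and Ent 64 at 10.75, had less Eif5a2 than SA 137, and their own marker means are not given. The proximal tubule marker mean reached down to 14.38 in IBA and 14.62 in Ent. The mean of the inner medulla markers Slc14a2 and Aqp3 was high in SA 137, LAr 113 and SpD 130, at 13.59, 12.83 and 13.06, against state means between 8.73 and 11.28. Cd79a, the 1 lymphocyte marker of 3 in the table, averaged 10.17 ± 0.34 in SA and 9.38 ± 0.32 in IBA, was called lower in IBA, and stood at 7.85 in SpD 130. The part of cell makeup in the 2 genes' differences was not tested.

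**Figure D2:**
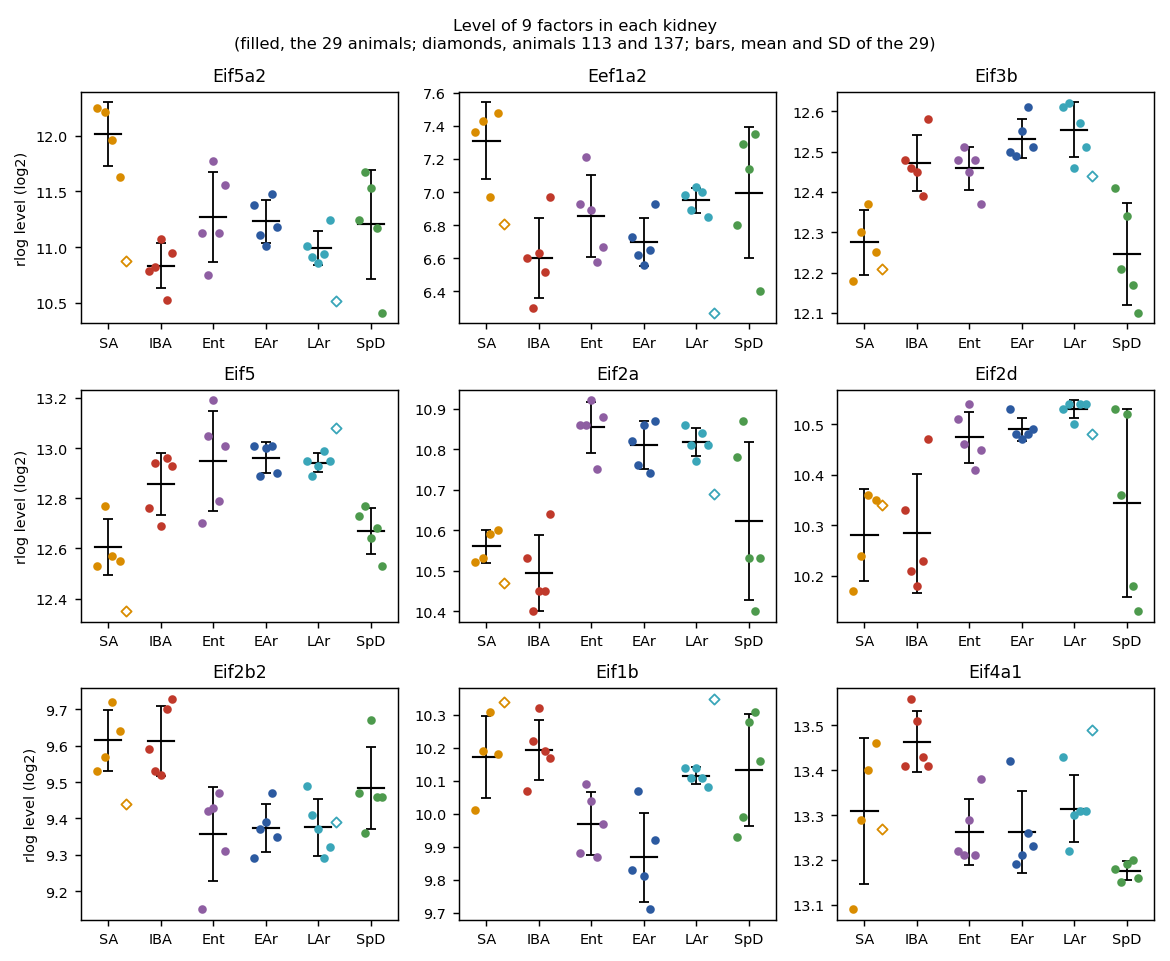
Rlog level (log2) of 9 factors in each kidney by state; filled circles are the 29 animals of the model with their mean and SD as bars, and open diamonds are SA animal 137 and LAr animal 113. Eif5a2 in SA lies above IBA in all 4 animals of the model, and Eif2a in Ent, EAr and LAr lies above IBA in every animal.

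The season comparison set the mean of the 4 hibernation states against the mean of SA and SpD, and it addresses whether a gene's level in winter differs as a whole from that of the active animals. It called 23 of the 58 genes, 19 higher in hibernation and 4 lower, where 16.6% of all genes were higher and 16.8% lower. The median difference over the 58 was 0.06, and over all genes 0.00. At the adjusted p of 0.001, 2 were called, Eif3b and Eif5, where 9.73% of all genes were. None of the 58 reached a 2-fold difference. Of the 23 calls, 14 were kept in all 29 fits that left out 1 animal.

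**Figure D3:**
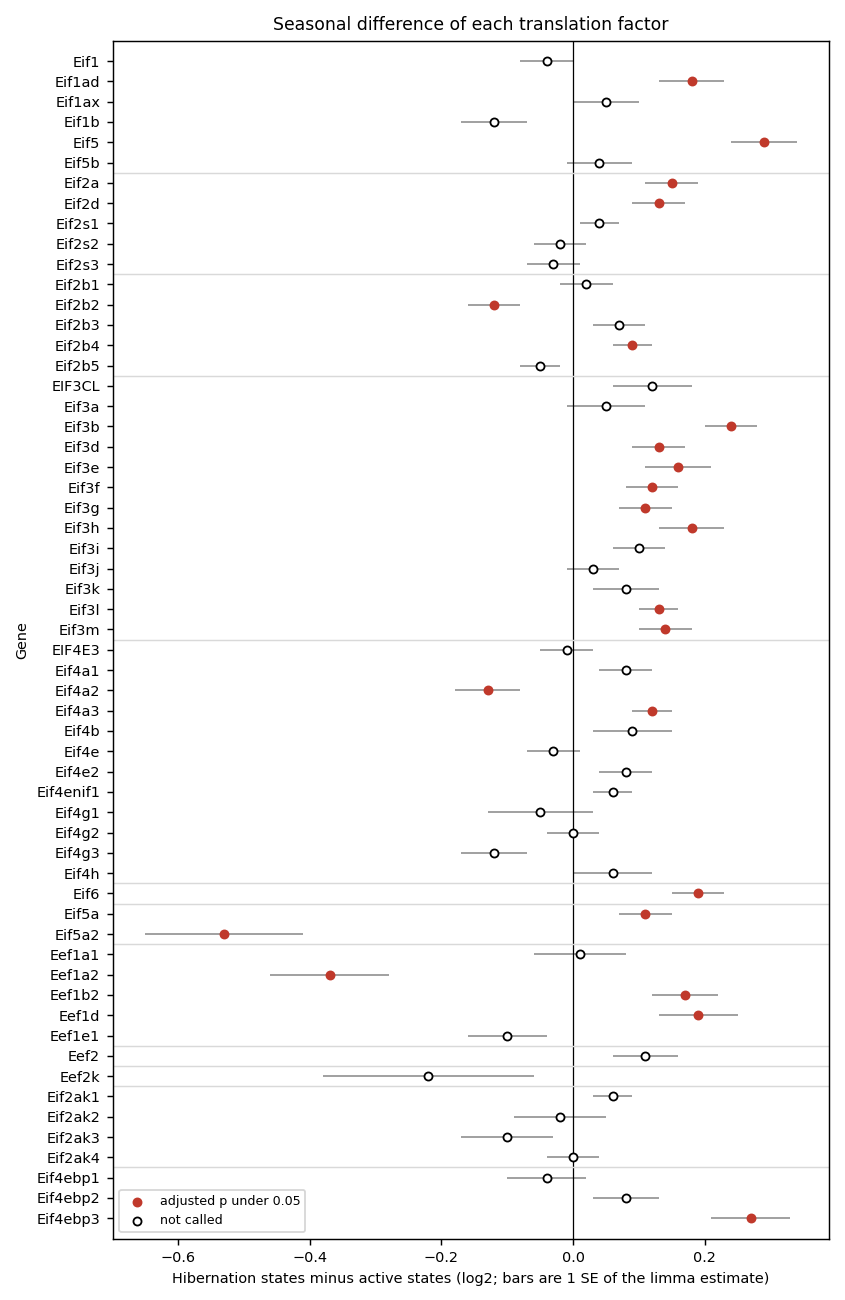
Hibernation states minus active states for each of the 58 genes, in log2 units with 1 SE of the limma estimate, grouped by role from start codon selection at the top to the 4E-BPs at the bottom; red points are called at an adjusted p under 0.05. All 13 eIF3 subunits lie to the right of 0, and Eif5a2 and Eef1a2 lie farthest to the left.

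The eIF3 complex, the largest initiation factor and the platform that joins the small subunit to the mRNA, had the most seasonal calls by number and is the largest group. By share, 61.5% of its genes were called, beside 3 of 5 eEF1 genes, 2 of 2 eIF5A genes and Eif6, in either direction. Over all genes 50.1% of the seasonal differences were positive and 16.6% of genes were called higher. All 13 eIF3 genes had positive differences, from 0.03 to 0.24, and 8 were called higher in hibernation, Eif3b, Eif3d, Eif3e, Eif3f, Eif3g, Eif3h, Eif3l and Eif3m. Left out in turn, single animals moved the number called between 5 and 9, the lowest without SA animal 138, and all 13 differences stayed positive. The mean level over the 13 was 11.78 ± 0.08 in SA and 11.77 ± 0.02 in SpD, and 11.86 ± 0.04, 11.90 ± 0.07, 11.89 ± 0.03 and 11.93 ± 0.03 in IBA, Ent, EAr and LAr. The 12 genes of the eIF4 group gave 1 higher, Eif4a3, and 1 lower, Eif4a2. Of the genes named EIF3, the row EIF3CL stands for a subunit with a near-identical copy in other genomes, and its assignment is uncertain.

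Eif3b (gene23299), the subunit that scaffolds the complex, had levels of 12.18, 12.30, 12.37 and 12.25 in SA and 12.41, 12.21, 12.34, 12.17 and 12.10 in SpD. In IBA the levels were 12.48, 12.46, 12.45, 12.39 and 12.58, and in Ent 12.48, 12.51, 12.45, 12.48 and 12.37. EAr gave 12.50, 12.49, 12.55, 12.61 and 12.51, and LAr 12.61, 12.62, 12.46, 12.57 and 12.51. All EAr and LAr animals of the model lay above all SA and SpD animals, and the IBA and Ent ranges met the active animals at their lower ends, through SpD animal 77 and SA animal 140. The seasonal difference was 0.24 ± 0.04 (adjusted p = 1.9e-05).

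Eif3l (gene5901), a subunit of the outer part of the complex, had SA levels of 10.98, 10.96, 10.99 and 11.11 and SpD levels of 11.11, 11.14, 11.12, 11.02 and 11.11. IBA gave 11.21, 10.93, 11.14, 11.21 and 11.14, and Ent 11.17, 11.22, 11.23, 11.19 and 11.03. EAr gave 11.21, 11.37, 11.23, 11.29 and 11.24, and LAr 11.23, 11.19, 11.13, 11.21 and 11.20. EAr lay above SA and SpD in every animal, whereas IBA and Ent each held a low animal. Its seasonal difference was 0.13 ± 0.03 (adjusted p = 0.0033).

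Eif5 (gene17167), the activator that makes eIF2 hydrolyse its GTP at the start codon, showed the largest seasonal increase among the 58 genes. Its levels were 12.53, 12.77, 12.57 and 12.55 in SA and 12.73, 12.77, 12.64, 12.68 and 12.53 in SpD. They were 12.76, 12.94, 12.69, 12.96 and 12.93 in IBA and 12.70, 13.05, 13.19, 12.79 and 13.01 in Ent. EAr gave 13.01, 12.89, 13.00, 13.01 and 12.90, and LAr 12.95, 12.89, 12.93, 12.99 and 12.95. EAr and LAr lay wholly above the active animals, and IBA and Ent overlapped them at their lower end. The difference was 0.29 ± 0.05 (adjusted p = 1.0e-04), and it stayed called in all 29 fits without 1 animal.

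Eif4ebp3 (gene10483), one of the proteins that sequester eIF4E, rose in the season as well. SA levels were 8.48, 8.82, 8.58 and 8.51, and SpD levels 8.85, 8.88, 8.63, 8.62 and 8.59. IBA gave 8.88, 8.95, 8.84, 8.71 and 9.04, Ent 8.86, 8.68, 8.89, 9.07 and 8.90. EAr gave 8.76, 8.90, 8.88, 8.76 and 9.18, and LAr 9.05, 9.03, 9.06, 9.16 and 8.86. LAr was above SA in every animal, and the other states overlapped. The seasonal difference was 0.27 ± 0.06 (adjusted p = 0.0012). Eif4ebp1 had state means between 8.30 ± 0.19 and 8.50 ± 0.16 and Eif4ebp2 between 13.93 ± 0.16 and 14.12 ± 0.06, and neither was called in any comparison.

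The other seasonal increases were small. Eif6, which keeps the large subunit from joining early, was higher by 0.19 ± 0.04 (adjusted p = 0.0024). Eef1b2 and Eef1d, exchange factor subunits that recharge eEF1A, were higher by 0.17 ± 0.05 (adjusted p = 0.017) and 0.19 ± 0.06 (adjusted p = 0.02), and both calls were lost without SA animal 138 (adjusted p = 0.055 and 0.062) and without SA animal 139 (0.055 and 0.054). Eif1ad, a protein with an eIF1A-like domain, was higher by 0.18 ± 0.05 (adjusted p = 0.014), and Eif4a3, the helicase at the core of the exon junction complex, by 0.12 ± 0.03 (adjusted p = 0.0092). Eef2, the translocase, had state means from 15.93 ± 0.07 in SA to 16.15 ± 0.11 in Ent, and its difference of 0.11 ± 0.05 was not called (adjusted p = 0.079).

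State means of Eef1b2 ran from 11.69 ± 0.13 in SpD to 11.94 ± 0.21 in Ent. Those of Eef1d ran from 12.32 ± 0.15 in SA to 12.61 ± 0.26 in Ent, where animal 66, at 13.05, lay above the other Ent animals, at 12.39 to 12.58. Eef1e1, a protein of the tRNA synthetase complex despite its elongation factor name, had means from 7.73 ± 0.11 in LAr to 7.99 ± 0.06 in SA, and its seasonal difference of -0.10 ± 0.06 was not called (adjusted p = 0.17). None of the 3 was called across states.

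The remaining decreases with season, beside Eif5a2 by 0.53 ± 0.12 (adjusted p = 0.0014) and Eef1a2 by 0.37 ± 0.09 (adjusted p = 0.0016), were Eif2b2 by 0.12 ± 0.04 (adjusted p = 0.026) and Eif4a2, a cap-complex helicase, by 0.13 ± 0.05 (adjusted p = 0.038). The filter at an rlog of 7 bears on the seasonal difference of Eef1a2 too, as its state means were highest in SA, at 7.31, and SpD, at 7.0. A lower level of that gene in hibernation was thus favoured in advance. In the second experiment alone the Eif5a2 difference was -0.32 and not called (adjusted p = 0.064), and that of Eif2b2 was -0.08 (adjusted p = 0.18). Neither decrease ran through all states of a season. Mean Eif5a2 was 12.02 in SA but 11.20 in SpD, below Ent at 11.27 and EAr at 11.23. Mean Eif2b2 was 9.61 in SA and 9.62 in IBA, and lower in Ent, EAr and LAr. The Eif4a2 call was lost in 15 of the 29 fits without an animal, and the Eif2b2 call without SA animal 140 (adjusted p = 0.084) and without SpD animal 83 (adjusted p = 0.069).

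The pair Ent/IBA asks what changed as warm animals cooled into torpor. It called 5 of the 58 genes, Eif2a and Eif2d higher in Ent and Eif2b2, Eif1b and Eif4a1 lower, where 5.52% of all genes were higher and 7.61% lower. Values centred on each animal's median gave 3 higher and 1 lower among the 58, and over all genes the share of calls that were higher moved from 42.0% to 56.0%. The number called among the 58 ranged from 2 to 9 as animals were left out: it was 2 without IBA 104, IBA 70 or Ent 62, 3 without IBA 75, IBA 69 or Ent 155, 8 without IBA 171 and 9 without Ent 64.

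Eif2a (gene22348) codes for an initiator-tRNA-binding protein that can act apart from eIF2; despite its name it is not a subunit of eIF2. In IBA the levels were 10.53, 10.40, 10.45, 10.45 and 10.64, and in Ent 10.86, 10.86, 10.92, 10.75 and 10.88. EAr gave 10.82, 10.76, 10.86, 10.74 and 10.87, and LAr 10.86, 10.81, 10.77, 10.84 and 10.81. SA gave 10.52, 10.53, 10.59 and 10.60, and SpD 10.78, 10.87, 10.53, 10.40 and 10.53. Ent, EAr and LAr lay above IBA and SA in every animal of the model, and SpD spanned both ranges.

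Eif2a was higher in Ent than in IBA by 0.36 ± 0.06 (adjusted p = 0.0013), and IBA was lower than LAr by 0.37 ± 0.07 (adjusted p = 0.0018); both comparisons use the same IBA animals. Within experiments the Ent/IBA difference was 0.42 in the first (3 against 3 animals) and 0.27 in the second (2 against 2). In the second experiment alone it was not called (adjusted p = 0.13). Both calls held in all 29 fits without 1 animal.

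Eif2d (gene12507), another factor that can deliver tRNA and takes part in ribosome recycling, was also high in Ent, EAr and LAr. IBA levels were 10.33, 10.21, 10.18, 10.23 and 10.47, Ent 10.51, 10.46, 10.54, 10.41 and 10.45. EAr gave 10.53, 10.48, 10.47, 10.48 and 10.49, and LAr 10.53, 10.54, 10.50, 10.54 and 10.54. SA gave 10.17, 10.24, 10.36 and 10.35, and SpD 10.53, 10.36, 10.52, 10.18 and 10.13. LAr lay above IBA in every animal, Ent overlapped IBA through IBA animal 171, and SpD spread over the whole range.

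The IBA/LAr difference of Eif2d was -0.30 ± 0.07 (adjusted p = 0.0064) and held in all 29 fits without 1 animal, though in the second experiment alone it was -0.18 (adjusted p = 0.089). Its Ent/IBA difference of 0.19 ± 0.06 (adjusted p = 0.049) was lost in 22 of them, and within experiments it was 0.27 in the first and 0.08 in the second. For SpD/IBA the 2 experiments differed: the Eif2d difference was 0.23 in the first and -0.19 in the second, and the limma interaction, added after the data were seen, was -0.44 (adjusted p = 0.038).

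Eif2b2 (gene5011), the beta subunit of the exchange factor eIF2B, moved the other way. IBA levels were 9.59, 9.53, 9.52, 9.70 and 9.73, and Ent levels 9.15, 9.42, 9.43, 9.47 and 9.31. EAr gave 9.29, 9.37, 9.39, 9.47 and 9.35, and LAr 9.49, 9.41, 9.37, 9.29 and 9.32. SA gave 9.53, 9.57, 9.72 and 9.64, and SpD 9.47, 9.36, 9.67, 9.46 and 9.46. IBA and SA lay above Ent, EAr and LAr in every animal of the model.

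Eif2b2 fell by 0.26 ± 0.06 from IBA to Ent (adjusted p = 0.0094), with -0.21 in the first experiment and -0.33 in the second, and IBA was 0.27 ± 0.07 above LAr (adjusted p = 0.0097). Both calls held in every fit without 1 animal, and in the second experiment alone the Ent/IBA difference was -0.31 and not called (adjusted p = 0.12). The 4 other eIF2B subunits, Eif2b1, Eif2b3, Eif2b4 and Eif2b5, were not called in either pair.

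Eif1b (gene1556) is a close paralog of Eif1, the gatekeeper of start codon choice, and reads may be split between them. Its levels in IBA were 10.07, 10.22, 10.32, 10.19 and 10.17, and in Ent 9.88, 10.09, 10.04, 9.87 and 9.97. EAr gave 9.83, 10.07, 9.81, 9.71 and 9.92, and LAr 10.14, 10.11, 10.14, 10.11 and 10.08. SA gave 10.01, 10.19, 10.31 and 10.18, and SpD 9.93, 9.99, 10.28, 10.31 and 10.16. LAr lay above EAr in every animal, and IBA and Ent met between 10.07 and 10.09.

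Eif1b fell by 0.22 ± 0.07 from IBA to Ent (adjusted p = 0.039), with -0.20 and -0.26 in the 2 experiments. The call was lost without IBA 75 (adjusted p = 0.11), IBA 104 (0.051), IBA 70 (0.082), Ent 155 (0.10), Ent 167 (0.057) or Ent 62 (0.072), with median centring (0.074), with all 31 animals (0.071) and in the second experiment alone (-0.23, adjusted p = 0.28). The LAr/EAr difference was 0.23 and was not called (adjusted p = 0.25). Eif1 itself was called across states (adjusted p = 0.019), with means of 13.04 ± 0.09 in IBA, 12.92 ± 0.10 in Ent, 12.90 ± 0.09 in EAr and 13.12 ± 0.05 in LAr.

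Eif4a1 (gene15466), the main helicase that unwinds the capped end of the mRNA, was highest in IBA. Its IBA levels were 13.41, 13.56, 13.51, 13.43 and 13.41, its Ent levels 13.22, 13.21, 13.29, 13.21 and 13.38, and its SpD levels 13.18, 13.15, 13.19, 13.20 and 13.16. SA gave 13.09, 13.29, 13.40 and 13.46, EAr 13.42, 13.19, 13.21, 13.26 and 13.23, and LAr 13.43, 13.22, 13.30, 13.31 and 13.31. Every IBA animal lay above every Ent and SpD animal.

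Eif4a1 fell by 0.29 ± 0.06 from IBA to SpD (adjusted p = 0.005), with -0.32 and -0.24 in the 2 experiments, and by 0.20 ± 0.06 from IBA to Ent (adjusted p = 0.039), with -0.25 and -0.13. The comparisons share the IBA animals. In the second experiment alone the SpD/IBA difference was -0.22 (adjusted p = 0.23) and the Ent/IBA difference -0.11 (adjusted p = 0.66), and neither was called. The Ent/IBA call was also lost with all 31 animals (adjusted p = 0.063), with median centring (0.094) and without IBA 75 (0.097), IBA 104 (0.055), IBA 69 (0.054), IBA 70 (0.092), Ent 155 (0.078), Ent 62 (0.075) or Ent 64 (0.07).

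The pairs EAr/Ent and LAr/EAr span torpor and the rewarming out of it, and limma called 0 of the 58 genes in each. For EAr/Ent 0.148% of all genes were higher and 0.109% lower, and for LAr/EAr 0.513% were higher and 0.0622% lower. In each pair 3 of the 58 had an unadjusted p under 0.05: Eif4ebp2, Eif4g2 and Eif3l in EAr/Ent, and Eif1, Eif1b and Eif2s3 in LAr/EAr. Of all 12863 genes, 921 had one in EAr/Ent and 1071 in LAr/EAr. Weighting animals by their quality called 2 in LAr/EAr, where 260 of all genes were higher and 164 lower. No other setting called any of the 58 in either pair. The largest differences were 0.20 in EAr/Ent and 0.25 in LAr/EAr, in either direction.

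The pair IBA/LAr completes the arousal. It called 6 of the 58 genes, where 9.93% of all genes were higher in IBA and 8.03% lower: Eif2b2 and Eif2ak2 were higher, and Eif2a, Eif2d, Eef1a2 and Eif2ak1 lower. Median centring gave 1 higher and 5 lower, and over all genes it moved the share of calls that were higher from 55.3% to 42.9%. The number called was 3 without IBA 75 or without LAr 116. The 13 eIF3 genes had 12 negative differences, beside 6601 of all 12863 genes. Of the 12, 0 were called and 2 had an unadjusted p under 0.05, where 4299 of all genes had one. With median centring 1 eIF3 gene was called lower, where 1388 of all genes were, and with animal weights 3, where 1888 were.

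IBA/SA compares the warm winter state with summer. It called 5 of the 58 genes, 2 higher in IBA and 3 lower, where 10.4% of all genes were higher and 12.5% lower, and at the adjusted p of 0.001 it called 2, Eif5a2 and Eef1a2, where 3.15% of all genes were called. The filter limit given above applies to the Eef1a2 call. Eif4a3 was higher in IBA by 0.25 ± 0.06 (adjusted p = 0.005), with means of 11.04 ± 0.11 in IBA and 10.80 ± 0.10 in SA. With all 31 animals this difference was 0.21 (adjusted p = 0.11).

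Eif2b4 (gene6096), the delta subunit of eIF2B, had SA levels of 10.15, 10.13, 10.26 and 10.24 and IBA levels of 10.31, 10.29, 10.35, 10.37 and 10.43. Ent gave 10.26, 10.46, 10.19, 10.32 and 10.28, EAr 10.35, 10.46, 10.36, 10.40 and 10.45, LAr 10.45, 10.41, 10.35, 10.40 and 10.33, and SpD 10.35, 10.35, 10.43, 10.31 and 10.33. SA was the lowest state, below every IBA and SpD animal. The IBA/SA difference of 0.16 ± 0.06 (adjusted p = 0.044) was lost in 15 of the 29 fits without an animal.

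SA/SpD compares the active animals of summer and spring. It called 4 of the 58 genes, all higher in SA, where 5.47% of all genes were higher and 5.01% lower: Eif5a2, Eif4g2, Eif4e and Eif2s3. None was called with all 31 animals, with animal weights or without SpD animal 130, and 2 were called without SA animal 139. Over all genes, 62 were higher and 63 lower with all 31 animals, and 65 and 43 with animal weights. In the main model 703 were higher and 645 lower. An unadjusted p under 0.05 was found in 8 of the 58, against 3741 of all 12863 genes. Eif4e, the cap-binding protein itself, was higher by 0.28 ± 0.08 (adjusted p = 0.035), with means of 11.05 ± 0.04 in SA and 10.78 ± 0.11 in SpD.

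Eif4g2 (gene10088), a scaffold related to eIF4G that lacks the eIF4E site, had levels of 14.60, 14.68, 14.60 and 14.48 in SA and 14.29, 14.32, 14.48, 14.28 and 14.21 in SpD. IBA gave 14.54, 14.68, 14.52, 14.31 and 14.41, Ent 14.40, 14.26, 14.48, 14.38 and 14.46, EAr 14.54, 14.39, 14.56, 14.67 and 14.53, and LAr 14.38, 14.42, 14.40, 14.34 and 14.47. SA and SpD touched at 14.48. The difference of 0.33 ± 0.08 (adjusted p = 0.013) was 0.29 without SpD animal 130 (adjusted p = 0.087).

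SpD/IBA compares spring with the warm winter state. It called 6 of the 58 genes, all lower in SpD, where 6.48% of all genes were higher and 5.42% lower: Eif4a1, Eif1ad, Eif3b, Eif6, Eif4a3 and Eif2s1, the alpha subunit of eIF2 that its kinases phosphorylate. The 13 eIF3 genes all had negative differences, beside 6670 of all 12863 genes. Among the 13, Eif3b, lower by 0.23 ± 0.06 (adjusted p = 0.0089), was the single call, with -0.14 in the first experiment and -0.36 in the second. Median centring called 2 of the 58, both lower, where 860 of all genes were higher and 636 lower. Single animals moved the number between 2 and 10: 2 without IBA 104 or IBA 69, 3 without IBA 70, SpD 80 or SpD 84, and 10 without Ent 66. Eif6 and Eif2s1, at adjusted p of 0.044 and 0.046, were lost in 17 and 21 of the 29 fits without an animal, Eif1ad (adjusted p = 0.041) in 7 and Eif4a3 (adjusted p = 0.033) in 6.

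The 4 eIF2 kinases sense different stresses and converge on eIF2: Eif2ak1 responds to heme shortage, Eif2ak2 to double-stranded RNA, Eif2ak3 to unfolded protein in the endoplasmic reticulum and Eif2ak4 to uncharged tRNA. None was called in the season comparison, where their differences lay between -0.10 and 0.06. State means ranged from 11.20 ± 0.07 in IBA to 11.35 ± 0.05 in LAr for Eif2ak1, from 7.79 ± 0.10 in LAr to 8.06 ± 0.17 in IBA for Eif2ak2, from 9.89 ± 0.34 in Ent to 10.16 ± 0.14 in IBA for Eif2ak3, and from 10.69 ± 0.08 in IBA to 10.87 ± 0.06 in EAr and 10.87 ± 0.14 in SpD for Eif2ak4.

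In IBA/LAr, Eif2ak2 was higher in IBA by 0.35 ± 0.12 (adjusted p = 0.037) and Eif2ak1 lower by 0.19 ± 0.06 (adjusted p = 0.03). The Eif2ak2 call was lost without IBA 75, IBA 70, Ent 167 or any of LAr 111, 112, 115 and 116 (adjusted p up to 0.08), and the Eif2ak1 call without IBA 75, IBA 104, LAr 109 or LAr 116 (adjusted p up to 0.076). With all 31 animals neither was called (adjusted p = 0.061 and 0.18). In the second experiment alone the Eif2ak2 difference was 0.21 (adjusted p = 0.28) and the Eif2ak1 difference -0.10 (adjusted p = 0.32). Without a term for experiment neither was called (adjusted p = 0.096 and 0.062). Eef2k, the kinase that inhibits eEF2, varied most within states, with a mean of 10.60 ± 0.70 in SA and 10.49 ± 0.18 in LAr, and its seasonal difference of -0.22 ± 0.16 was not called (adjusted p = 0.29).

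**Figure D4:**
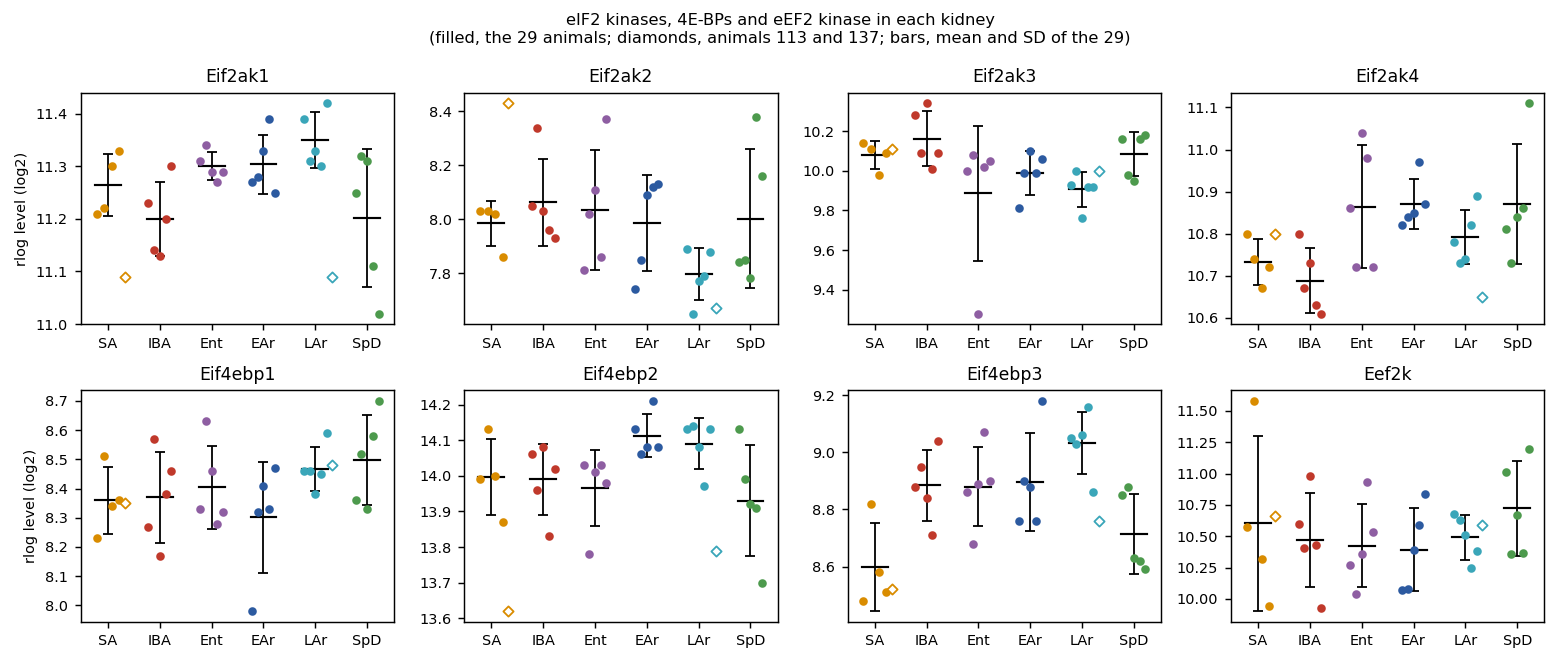
Rlog level (log2) of the 4 eIF2 kinases, the 3 4E-BPs and Eef2k in each kidney by state, with the mean and SD of the 29 animals of the model as bars and SA animal 137 and LAr animal 113 as open diamonds. Eif4ebp3 is lowest in SA, with a mean of 8.60, and highest in LAr, with 9.03, while the other panels overlap between most states.

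Sex separated a single member. Eif2s3 (gene17275) codes for the gamma subunit of eIF2, which binds the initiator tRNA, and the gene lies on the X chromosome in other mammals. In 16 females of the model its levels had a lowest value of 11.80, a median of 11.98 and a highest value of 12.29, and in 13 males 11.58, 11.71 and 11.83. Within every state all females lay above all males, although the ranges over all states met between 11.80 and 11.83. The difference, female minus male, was 0.33 ± 0.03 (adjusted p = 5.2e-06), and 1 of 58 genes was called where 0.218% of all genes were.

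By state, the Eif2s3 levels were 11.82, 12.25, 11.83 and 12.10 in SA, 11.66, 11.66, 11.80, 11.96 and 12.08 in IBA, and 11.71, 12.16, 12.29, 11.96 and 11.75 in Ent. EAr gave 12.12, 12.01, 11.73, 11.80 and 11.72, LAr 11.89, 11.94, 11.91, 11.59 and 11.70, and SpD 11.62, 11.94, 12.01, 11.89 and 11.58. With sex in the model, Eif2s3 was higher in SA than in SpD by 0.25 ± 0.07 (adjusted p = 0.022) and lower in IBA than in SA by 0.22 ± 0.07 (adjusted p = 0.019). Without SA animal 139 these calls were lost (adjusted p = 0.072 and 0.064), and the first also without SpD 130 (0.10) or SpD 84 (0.05). Eif1ax, another factor coded on the X chromosome in other mammals, was not called by sex, with medians of 11.83 in females and 11.81 in males. The limma interaction of season with sex, added after the data were seen, called 0 of the 58 genes, and 1 had an unadjusted p under 0.05.

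**Figure D5:**
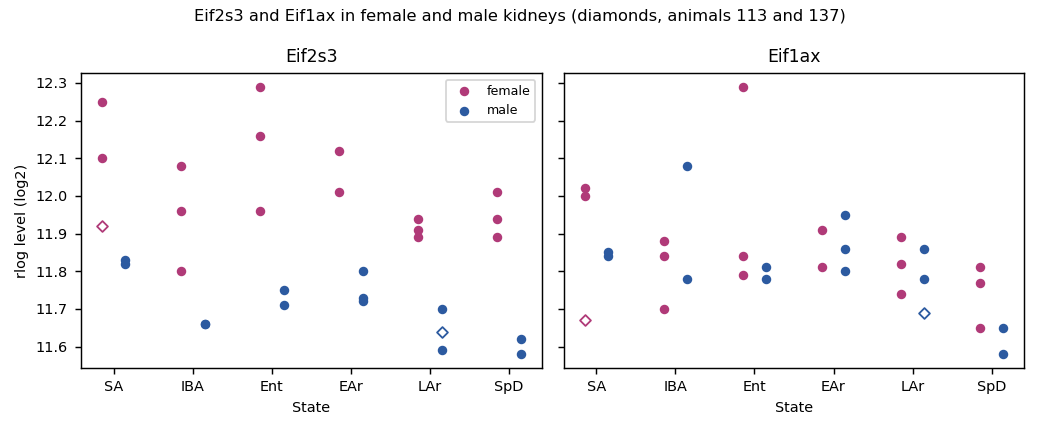
Rlog level (log2) of Eif2s3 and Eif1ax in female and male kidneys by state, 1 point per animal, with SA animal 137 and LAr animal 113 as open diamonds. For Eif2s3 every female lies above every male of its state, and for Eif1ax the sexes overlap in most states.

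The 2 animals left out and SpD animal 130, which stood apart in earlier results of these data, were set against the other animals of their states. LAr 113 lay above all other LAr animals in 22.4% of the 58 genes and below them in 39.7%, against 35.6% and 37.2% of all genes. SA 137 lay above the others in 15.5% and below in 27.6%, against 33.9% and 29.5%, and SpD 130 in 17.2% and 34.5%, against 32.7% and 28.4%. These shares are descriptions and their differences were not tested. Markers of the kidney's tubule segments, endothelium and macrophages were all in the table, whereas 0 of 4 adrenal cortex markers and 1 of 3 lymphocyte markers were.

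Among genes that act beside the translation factors, those around eIF2 phosphorylation held some of the larger differences. Of 11 phosphatase subunits and kinase regulators of eIF2, 7 were called across states, or 63.6%, against 46.1% of all genes. Ppp1r15a, the inducible subunit that removes phosphate from eIF2, rose by 1.49 ± 0.13 from EAr to LAr (adjusted p = 1.2e-07) and differed by -1.42 ± 0.15 between IBA and LAr, lower in IBA (adjusted p = 1.9e-06). Its means were 10.17 ± 0.15 in SA, 10.79 ± 0.31 in IBA, 10.72 ± 0.23 in Ent, 10.52 ± 0.34 in EAr, 11.99 ± 0.17 in LAr and 10.78 ± 0.28 in SpD. All LAr animals, from 11.75 to 12.17, lay above all others.

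In the same list, Prkrip1, which binds Eif2ak2, was 0.57 ± 0.07 higher in IBA than in LAr (adjusted p = 2.7e-05), and Impact, a competitor for activation of Eif2ak4, was 0.42 ± 0.08 higher in Ent than in IBA (adjusted p = 0.0015). Of 12 measured genes of 14 for ATF4 and its targets, the transcription response downstream of phosphorylated eIF2, 9 were called across states, or 75.0% against 46.1% of all genes. Of these 12, 3 were higher in LAr than in EAr, where 0.513% of all genes were, and 5 lower in IBA than in SA, where 12.5% were. Ddit3, coding for the stress factor CHOP, rose by 0.71 ± 0.10 from EAr to LAr (adjusted p = 2.2e-04), and Ddit4, an inhibitor of mTORC1, by 0.56 ± 0.13 (adjusted p = 0.032). Psat1, an enzyme of serine synthesis, fell by 1.14 ± 0.13 from SA to IBA (adjusted p = 7.8e-06).

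The other lists are set against the same 46.1% of all genes called across states. Of 19 measured mTORC1 pathway genes of 21, 4 were called across states, or 21.1%, with Deptor, an mTOR-binding inhibitor, 0.44 ± 0.09 higher in SpD than in IBA (adjusted p = 0.002) and Rps6kb2, a kinase of ribosomal protein S6, lower in IBA than in LAr (difference -0.26, adjusted p = 0.0041). Of 14 regulators of eIF4E and eIF4A of 15, 4 were called, or 28.6%: Mknk1, a kinase of eIF4E, fell by 0.38 ± 0.06 from IBA to Ent (adjusted p = 8.0e-04), and Angel1, an eIF4E-binding protein, was 0.32 ± 0.04 higher in the hibernation states (adjusted p = 1.0e-06). The 6 poly(A)-binding proteins gave 1 call, or 16.7%, Pabpn1, 0.29 ± 0.08 lower in SA than in SpD (adjusted p = 0.02).

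Of 13 termination, recycling and rescue genes, 6 were called across states, or 46.2%, beside 46.1% of all genes, and Etf1, the release factor eRF1, was 0.24 ± 0.04 higher in the hibernation states (adjusted p = 7.2e-05). Of 9 genes for the synthesis of diphthamide, a modified residue of eEF2, and hypusine, 6 were called, or 66.7%. Dhps, which makes hypusine on eIF5A, was 0.29 ± 0.06 higher in Ent than in IBA (adjusted p = 0.0048), and Dph2 0.38 ± 0.11 lower (adjusted p = 0.021). Of 9 measured genes of 11 for elongation factor methyltransferases and selenocysteine insertion, 4 were called, or 44.4%, with Mettl13, which methylates eEF1A, 0.42 ± 0.08 higher in IBA than in SA (adjusted p = 4.3e-04).

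Of 9 mitochondrial initiation, elongation and ribosome recycling factors, 3 were called across states, or 33.3% against 46.1% of all genes. The same 3 were lower in IBA than in SA, where 12.5% of all genes were: Gfm1, mitochondrial elongation factor G, by 0.64 ± 0.10 (adjusted p = 1.3e-04), Tufm by 0.31 ± 0.08 (adjusted p = 0.0086) and Mrrf, the recycling factor, by 0.25 ± 0.07 (adjusted p = 0.011). Of 22 cytosolic aminoacyl-tRNA synthetases and their scaffold, which charge the tRNAs, 8 were called across states, or 36.4% against 46.1% of all genes. In hibernation 5 of the 22 were higher, where 16.6% of all genes were, and 0 lower, with Kars higher by 0.20 ± 0.03 (adjusted p = 3.7e-05). Of 80 cytosolic ribosomal protein genes, 2.5% were called across states against 46.1% of all genes. In hibernation 15 of the 80 were higher, where 16.6% of all genes were, and 1 was lower, with a median difference of 0.13 beside 0.12 for the 13 eIF3 genes.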

How the data were processed

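The 31 animals analysed here had kidney poly(A) RNA sequenced in 2 experiments with different library kits (TruSeq Stranded mRNA in the first, Universal Plus mRNA in the second). The authors used cutadapt for trimming, HISAT2 to take out mitochondrial reads and Salmon for quantification, summed transcripts to genes, kept genes at an rlog of 7 or more in most animals of a group, and deposited rlog values (DESeq2, log2 scale) after removing the experiment effect with limma. Such shrunken and corrected values understate changes of low genes, and the correction was made before the model used here.

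From these values, limma 3.58.1 (R 4.3.3) was fitted over 12863 genes with state, sex and experiment as terms on 29 animals, with 21 residual degrees of freedom, an F test across states, 7 pairs of states, a season contrast and sex. limma stands in for a count test because counts are not used here. P-values were adjusted by Benjamini-Hochberg over all genes in each comparison, with 0.05 as the threshold and the 0.001 of the study beside it. The labels give each sample as a separate animal. The script was tested on simulated data. Tables were handled with Python 3.11.15, pandas 2.3.3 and matplotlib 3.10.9.

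Genes, lists and rules were chosen with earlier results of these data known. Symbols came from the table, and 57 of the 58 matched a RefSeq symbol. Named were every eIF2 kinase, 4E-BP and elongation gene, the 8 initiation factors of lowest adjusted p across states, and up to 2 called genes of largest increase and of largest decrease per comparison, with values in every animal for 14 of these, those of lowest adjusted p across states and the gene called by sex. Up to 3 genes per pathway list were eligible, by the same rank, and close paralogs were added. Other called genes were named after their values were seen. Alternatives were all 31 animals, animal weights, the second experiment alone, no experiment term, median centring, a mean of at least 8, the 0.001 threshold and each animal left out. Interactions with experiment and sex were added after the data were seen. No sequence is printed. One list of cell type markers is not reported here.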

Additional observations from a re-analysis of the deposited data

Results flagged for a closer look

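The check for a single distant value covered the 14 genes given in every animal, in each of 6 states. Of these 84 groups of animals, 4 held one, and chance alone gives about 1 in 20. Other genes, among them Eef1a1, Eef1d and Eif2ak3, were not checked. Eef1a2 in LAr animal 113 was the lowest of 6, at 6.27 with the nearest animal at 6.85. Eif1b in the same animal was the highest of 6, at 10.35 with the nearest at 10.14. Eif3l was the lowest of 5 in IBA animal 70, at 10.93 with the nearest at 11.14, and in Ent animal 167, at 11.03 with the nearest at 11.17. The SpD/IBA difference of Eif2d differed between the experiments by -0.44 (second minus first, limma interaction, adjusted p = 0.038), from 0.23 in the first to -0.19 in the second, where 236 of all 12863 genes were called for this interaction.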

How the results depend on the processing

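No called difference of the named genes changed sign under any alternative run, whereas the seasonal differences of Eef1a1 and Eif2ak4, near 0 and not called, ran from -0.02 to 0.03 and from -0.01 to 0.03. The number called of the 58 changed by over 1.5 times as follows. With all 31 animals it was 0 for SA/SpD, 3 for IBA/SA, 2 for Ent/IBA, 3 for IBA/LAr and 3 for SpD/IBA. With animal weights it was 33 across states, 0 for SA/SpD, 13 for Ent/IBA, 2 for LAr/EAr and 14 for IBA/LAr. In the second experiment alone it was 9 for SA/SpD, 0 for Ent/IBA and 3 for IBA/LAr. Without a term for experiment it was 8 for IBA/SA and 3 for IBA/LAr, and with median centring 2 for SpD/IBA. At the 0.001 threshold it was 3 across states, 2 for IBA/SA, 2 for season and 0 for SA/SpD, Ent/IBA, IBA/LAr and SpD/IBA. The stricter threshold calls fewer genes by its definition, and the cause of the other changes was not tested. Over all genes some counts moved too. Ent/IBA had 710 higher and 979 lower in the main model. With animal weights it had 1883 and 2141, and in the second experiment alone 11 and 22. IBA/LAr had 1277 and 1033, and 2050 and 1888 with animal weights. IBA/SA had 1337 and 1605, 501 and 786 with all 31 animals, but 1398 and 1532 without a term for experiment. SA/SpD had 703 and 645, and 1717 and 1684 in the second experiment alone. The second experiment alone held fewer animals, and it called fewer of the 58 in some pairs and more in SA/SpD. Leaving out each animal gave 18 to 24 across states, 0 to 6 for SA/SpD, 4 to 7 for IBA/SA, 2 to 9 for Ent/IBA, 0 for EAr/Ent and LAr/EAr, 3 to 9 for IBA/LAr, 2 to 10 for SpD/IBA, 16 to 26 for season and 1 for sex. Of 49 calls by state or season, 24 were kept in all 29 of these fits. No paired analysis was possible because each animal has its own number and gave 1 sample. SA, EAr and LAr come from the second experiment, so within it they are compared with 2 animals each of IBA, Ent and SpD.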

Other observations

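The 4 rows that carried a symbol already present were not used above. Of these, a further row for Eif4g2 passed the F test across states (adjusted p = 0.02), with a difference of 0.34 between SA and SpD that was not called (adjusted p = 0.084), beside 0.33 in the row used. For the interaction of Ent/IBA with experiment limma called 0 of the 58 genes and 0 of all genes, and 5 of the 58 had an unadjusted p under 0.05. For that of SpD/IBA, where Eif2d was the 1 call among the 58, 8 had one. Among these were Eif2ak1, at -0.32 (adjusted p = 0.063), and Eif2a, at -0.38 (adjusted p = 0.083). Such unadjusted counts were not made over all genes for the interactions.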
